A study of Macaca fascicularis with 44 samples.

Results

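Chemokines, interleukins and interleukin receptor chains were described across the cell classes and days of cultured cynomolgus monkey (Macaca fascicularis) embryos. A gene was a member when its name was CCL, CXCL, CX3CL or XCL with a number, or IL with a number followed only by letters or digits. The rule found 110 members among 21834 genes. They comprised 33 chemokine ligands, 36 interleukin ligands, 37 interleukin receptor chains and 4 soluble inhibitors or enzymes. Of these, 101 had at least 1 count in the 3682 cells, 58 had at least 100 counts, and 9 (IL2, IL3, IL31, IL15RA, IL36A, IL17REL, IL17C, CCL13 and CCL14) were listed at 0 in every cell.

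The embryos were wild type, made by sperm injection into oocytes and grown in vitro from the blastocyst. Extraembryonic tissue was dissected away before the cells were separated with TrypLE, an enzyme mix, and by mouth pipetting, so trophoblast shares say nothing about a whole conceptus. RNA was read from single cells by scChaRM-seq, an assay that also reads DNA features of the same cell. There were 44 libraries from 9 embryos: 2 embryos at embryonic day 16 (E16-1 and E16-2) and 1 each at days 18, 20, 21, 22, 23, 24 and 25. No treatment was compared, all groups share the culture, and the axes are the authors' 12 cell classes, their 26 fine clusters and the day. Embryos E16-1, E18-1, E21-1 and E23-1 were annotated as male and the other 5 as female, so day, sex and embryo cannot be told apart after day 16.

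Chemokines are small secreted proteins that guide migrating cells through receptors coupled to G proteins, and they are grouped by the spacing of cysteines near their start. Interleukins are secreted signals that act through chains sorted by family. The IL6 family shares the signalling chain IL6ST (gp130), while the IL1 family is held in check by decoy receptors and receptor antagonists. In the placenta, trophoblast and its mesenchyme are known sources of several of them, and CXCL12 with its receptor CXCR4 guides cells during gastrulation.

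Levels are CPM, the counts of a gene summed over the cells of a class in 1 embryo and scaled to a total of 1000000 counts over all genes. Sums needed at least 10 cells, the embryo was the replicate, and cells were not. CPM are not corrected for gene length, so levels are compared between cells and not between genes. Libraries held 22 to 96 cells and 4393315 to 30568931 counts, and the median cell held 110458 counts. Embryo E20-1 was deeper, with a median of 214466 counts per cell, and EVT cluster 7 was shallow, with a median of 10199.5. The same 96 cell numbers recur across libraries, and all 3682 count profiles were distinct. Libraries 26 and 27, whose 2 labels disagree on the day, held 149 cells. They were left out of all embryo values and kept in levels pooled over all cells.

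The classes were checked against their markers. Summed syncytiotrophoblast markers were 42488 CPM in STB, mesenchyme markers 33227 CPM in EXMC and extravillous markers 2861 CPM in EVT. The neural list summed to only 7.84 CPM in the class named neural ectoderm, against 24.8 CPM in EVT, so that label was not borne out by this list. Nor did the lists for Mesoderm and CTB single out their classes: the mesoderm list summed to 555.4 CPM in Mesoderm against 1351 CPM in EXMC, and the CTB list to 4431 CPM in CTB against 4423 CPM in STB. The 17 cells named blood carried endothelial markers at 3530 CPM and leukocyte markers at 525.8 CPM, with erythroid markers at 0. Outside these cells, leukocyte markers summed to at most 94.6 CPM in a class and lymphoid markers to at most 0.6 CPM.

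The members together took 0.139663% of all counts, and IL6ST alone took 61.2% of member counts. Of the 110 members, 63 never rose above 5 CPM in any class or fine cluster. Each of 7 classes with sums in at least 3 embryos was compared with the mean of the other 6, with embryo as a block (edgeR quasi-likelihood test, Benjamini-Hochberg adjustment over all genes and contrasts). The classes were named by the authors from the same RNA, so these p-values describe the classes and do not test independent groups. In all, 48 members had enough counts to be tested and 40 passed an adjusted p of 0.05 in at least 1 class, where 74.6% of all 14166 genes did. By role, 10 of 11 chemokines, 7 of 12 interleukins, 3 of 4 inhibitors or enzymes and 20 of 21 receptor chains passed.

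In extravillous trophoblast (EVT), the invasive trophoblast, 14 members passed and all 14 were higher, against 15.8% higher and 6.75% lower among all 14166 genes. With at least 20 cells per sum or without fine cluster 18, 14 were higher and 2 lower in EVT, and with sums per library 10 were higher and 2 lower. Extraembryonic mesenchyme (EXMC) had 14 higher and 5 lower, against 19.8% and 12.1% of all genes. Syncytiotrophoblast (STB), the fused hormone-making layer, had 11 higher and 1 lower, against 15.4% and 9.23%. Cytotrophoblast (CTB), the proliferating trophoblast, had 7 higher and 5 lower, against 18.3% and 15.7%. The class named Extraembryonic Mesoderm had 7 higher and 3 lower, against 17.5% and 8.8%. Epiblast (EPI), the embryo's pluripotent layer, had 6 higher and 3 lower, against 11.6% and 8.86%. Embryonic Mesoderm had 2 higher and 5 lower, against 9.17% and 5.68%. Fits with at least 20 cells per sum or with sums per library lacked EPI and STB. The library fit also added both ectoderm classes and the class named PS and derivative. In both settings each class is thus compared with other classes than in the main fit, also where a call is said to be lost.

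The median member had a log2 fold change of 0.90 in EVT, where the median gene had 0.02. The median member stood at 0.75 in EXMC, 0.61 in Extraembryonic Mesoderm and -0.99 in Mesoderm. In the other 3 classes it lay between -0.51 and -0.12. Without the 13 members at 0 in every sum of some tested class, whose fitted values are not bounds, the median was 0.85 in EVT, 0.50 in EXMC, 0.20 in Extraembryonic Mesoderm and -0.87 in Mesoderm. In EPI it then turned from -0.49 to 0.16. Only members with enough counts enter these medians, so they do not speak for all 110.

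**Figure D1:**
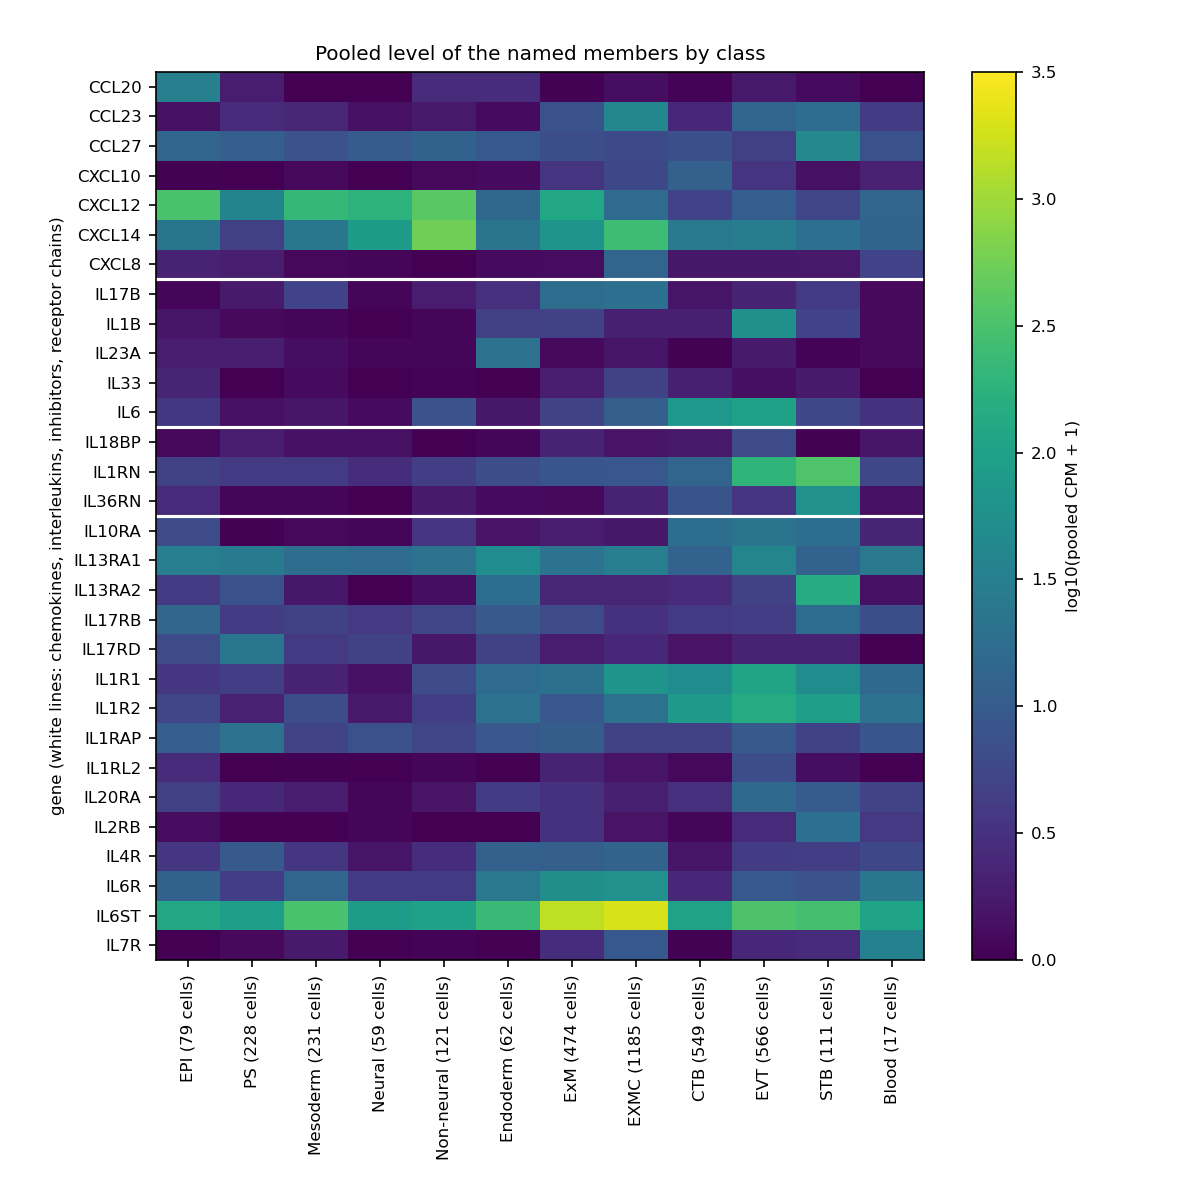
Heat map of log10(pooled CPM + 1) for the 30 named members (rows, grouped by role) in the 12 classes (columns, with cell numbers). IL6ST is brightest in EXMC and Extraembryonic Mesoderm (ExM), IL6 in CTB and EVT, IL1RN in EVT and STB, and CXCL12 in Non-neural ectoderm and EPI.

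Among chemokine ligands, CXCL12 was highest in EPI, Mesoderm, both ectoderm classes and Extraembryonic Mesoderm. Pooled over all cells it was lower in PS and derivative (37.5 CPM), the class named after the primitive streak, and in Endoderm (14.2 CPM). In EPI it stood at 159 CPM in E18-1, 137 in E21-1 and 175 in E25-1. In Mesoderm the values were 49.3 CPM in E18-1, 126 in E21-1 and 268 in E22-1. Non-neural ectoderm held 567 CPM in E22-1 and 278 in E23-1, the highest embryo sums of CXCL12 in any class with 10 cells. In Extraembryonic Mesoderm it ranged from 41.5 to 173 CPM (median 103, 6 embryos). STB stayed between 0.925 and 7.54 CPM and EXMC between 1.69 and 28.8 CPM, with no overlap with the 3 higher classes tested. CTB ranged from 0.206 to 63.7 CPM, and only its E22-1 sum reached into the range of those classes.

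The log2 fold change of CXCL12 was 3.25 ± 0.48 (SE) in EPI (adjusted p = 3.06e-06), 2.19 ± 0.53 in Mesoderm and 2.12 ± 0.37 in Extraembryonic Mesoderm (edgeR, Benjamini-Hochberg). It was -2.69 ± 0.48 in CTB and -2.78 ± 0.72 in STB, and the STB call was lost without E18-1 or without E21-1 (largest adjusted p 0.0783). Within each of 6 shared embryos CXCL12 was higher in Extraembryonic Mesoderm than in EXMC, by a median of 7.34-fold (1.56 to 102.4). The lower call in EXMC (adjusted p = 0.0489) was lost in 11 of 17 alternatives. EPI sums below 10 cells were higher still, at 877 CPM in 8 cells of E16-1 and 1054 CPM in 5 cells of E16-2.

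The receptors of CXCL12 overlapped with it in part. CXCR4, its signalling receptor, was highest in Endoderm, where CXCL12 was low, at 678 CPM in E18-1 and 155 in E21-1. CXCR4 ranged from 10.6 to 98.8 CPM in Extraembryonic Mesoderm and from 0.246 to 4.49 CPM in CTB, without overlap. Its log2 fold change was 1.54 ± 0.40 in the first and -3.86 ± 0.60 in the second (edgeR adjusted p = 0.00326 and 4.91e-06). Of cells with a CXCR4 count, 113 of 167 in Extraembryonic Mesoderm, 70 of 83 in Mesoderm and 18 of 23 in EPI also had a CXCL12 count, in cells not matched for depth. Among all cells of these classes 285 of 474, 178 of 231 and 64 of 79 had one, so the shares were near those of all cells. In STB, CXCR4 was 129 CPM in E20-1 and 9.20, 1.62 and 1.77 in the other 3 embryos. ACKR3, which takes up CXCL12 without G protein signalling, was higher in EXMC (0.642 to 15.9 CPM, log2 fold change 2.52 ± 0.46).

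CXCL14, an epithelial and stromal chemokine, had the reverse order of CXCL12 in EXMC and Extraembryonic Mesoderm. EXMC sums ran from 99.6 to 461 CPM (median 229, 8 embryos) and Extraembryonic Mesoderm sums from 12.2 to 107 CPM (median 38.5, 6 embryos). EXMC was higher in 6 of 6 shared embryos, by a median of 4.5-fold (2.52 to 20.1), although E16-2 of EXMC lay below the highest Extraembryonic Mesoderm sum. In EXMC the log2 fold change of CXCL14 was 3.41 ± 0.37 (edgeR adjusted p = 1.2e-08). Non-neural ectoderm, which had too few embryos for a test, held CXCL14 at 1001 CPM in E22-1 and 224 in E23-1. CTB was uneven, from 1.23 to 142 CPM, with the 3 youngest embryos at or below 2.75.

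CCL23, a CC chemokine that draws monocytes, was carried mostly by 1 embryo. In EXMC it was 186 CPM in E16-2 and 0 to 20.7 CPM in the other 7. In STB it was 169 CPM in E16-2 and 0 to 1.33 CPM in E20-1, E23-1 and E25-1. CCL23 was called higher in EXMC (2.58 ± 0.48, edgeR adjusted p = 4.98e-05) under every one of 17 alternatives, the one without E16-2 included. A call in EVT (2.37 ± 0.60) was lost without E20-1, whose sum was 19.5 CPM, and under DESeq2. A single EXMC cell of E16-2 held 36.4% of all CCL23 counts.

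CXCL8, the neutrophil attractant, followed the same embryo. It stood at 63.3 CPM in EXMC of E16-2 and at 0 to 2.41 CPM in EXMC of the other 7 embryos. The call for CXCL8 in EXMC (2.17 ± 0.66, edgeR adjusted p = 0.0131) was lost without E16-2, under DESeq2, with at least 20 cells per sum and with sums per library. Its 3 richest cells held 52.9% of its counts. In fine cluster 6, which held most EXMC cells of E16-2, PTPRC and LAPTM5, 2 of the 15 listed leukocyte and macrophage markers, were at 0.1 and 0.2 CPM. Over all EXMC cells the 15 markers summed to 9.17 CPM, with CD68, LYZ and CD14 at 2.44, 1.80 and 1.71 CPM. The dissociation genes, a list of immediate early and stress genes, had their lowest EXMC sum in E16-2, at 863.5 CPM against 2205 to 8125 CPM in the other 7 embryos. Any part of leukocytes or of dissociation in the CCL23 and CXCL8 levels was not tested.

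CCL20, the ligand of CCR6, was highest in EPI, with 71.2% of its counts in 22 EPI cells. EVT held 9.57% of its counts, nearly all in 1 cell of cluster 23 of E20-1 with 68 counts, and EXMC held 7.91% in 9 cells. EPI held 70.3 CPM in E18-1, 60.8 in E21-1 and 5.60 in E25-1, while all sums of the 6 other classes tested were at most 1.67 CPM. EPI lay above them without overlap, and the call (edgeR adjusted p = 6.02e-09) held in all 12 alternatives that could fit EPI. None of these left out E18-1, E21-1 or E25-1, so the weight of a single EPI embryo was not tried. The fitted fold change of CCL20 depends on sums at 0 and is not given. In EPI of E16-1 and E16-2, with 8 and 5 cells, CCL20 was at 0. The 3 EPI sums above rest on 23, 12 and 15 cells.

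CXCL10, an interferon-induced ligand of CXCR3, was 22.5 CPM in CTB of E20-1 and 0 to 6.22 CPM in the other 7 CTB sums. Its call in CTB (3.10 ± 0.78) was lost without E20-1 and under DESeq2 (largest adjusted p 0.16). CCL27, a skin-homing chemokine, was 18.4, 2.21, 8.10 and 83.3 CPM in STB of E16-2, E20-1, E23-1 and E25-1. The STB call for CCL27 (1.52 ± 0.48, edgeR adjusted p = 0.0161) was lost without E25-1. In 7 STB cells of E24-1, below the minimum, CCL27 was 357 CPM. CCR10, its receptor, was higher in Extraembryonic Mesoderm instead (0 to 10.0 CPM, 2.67 ± 0.71).

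**Figure D2:**
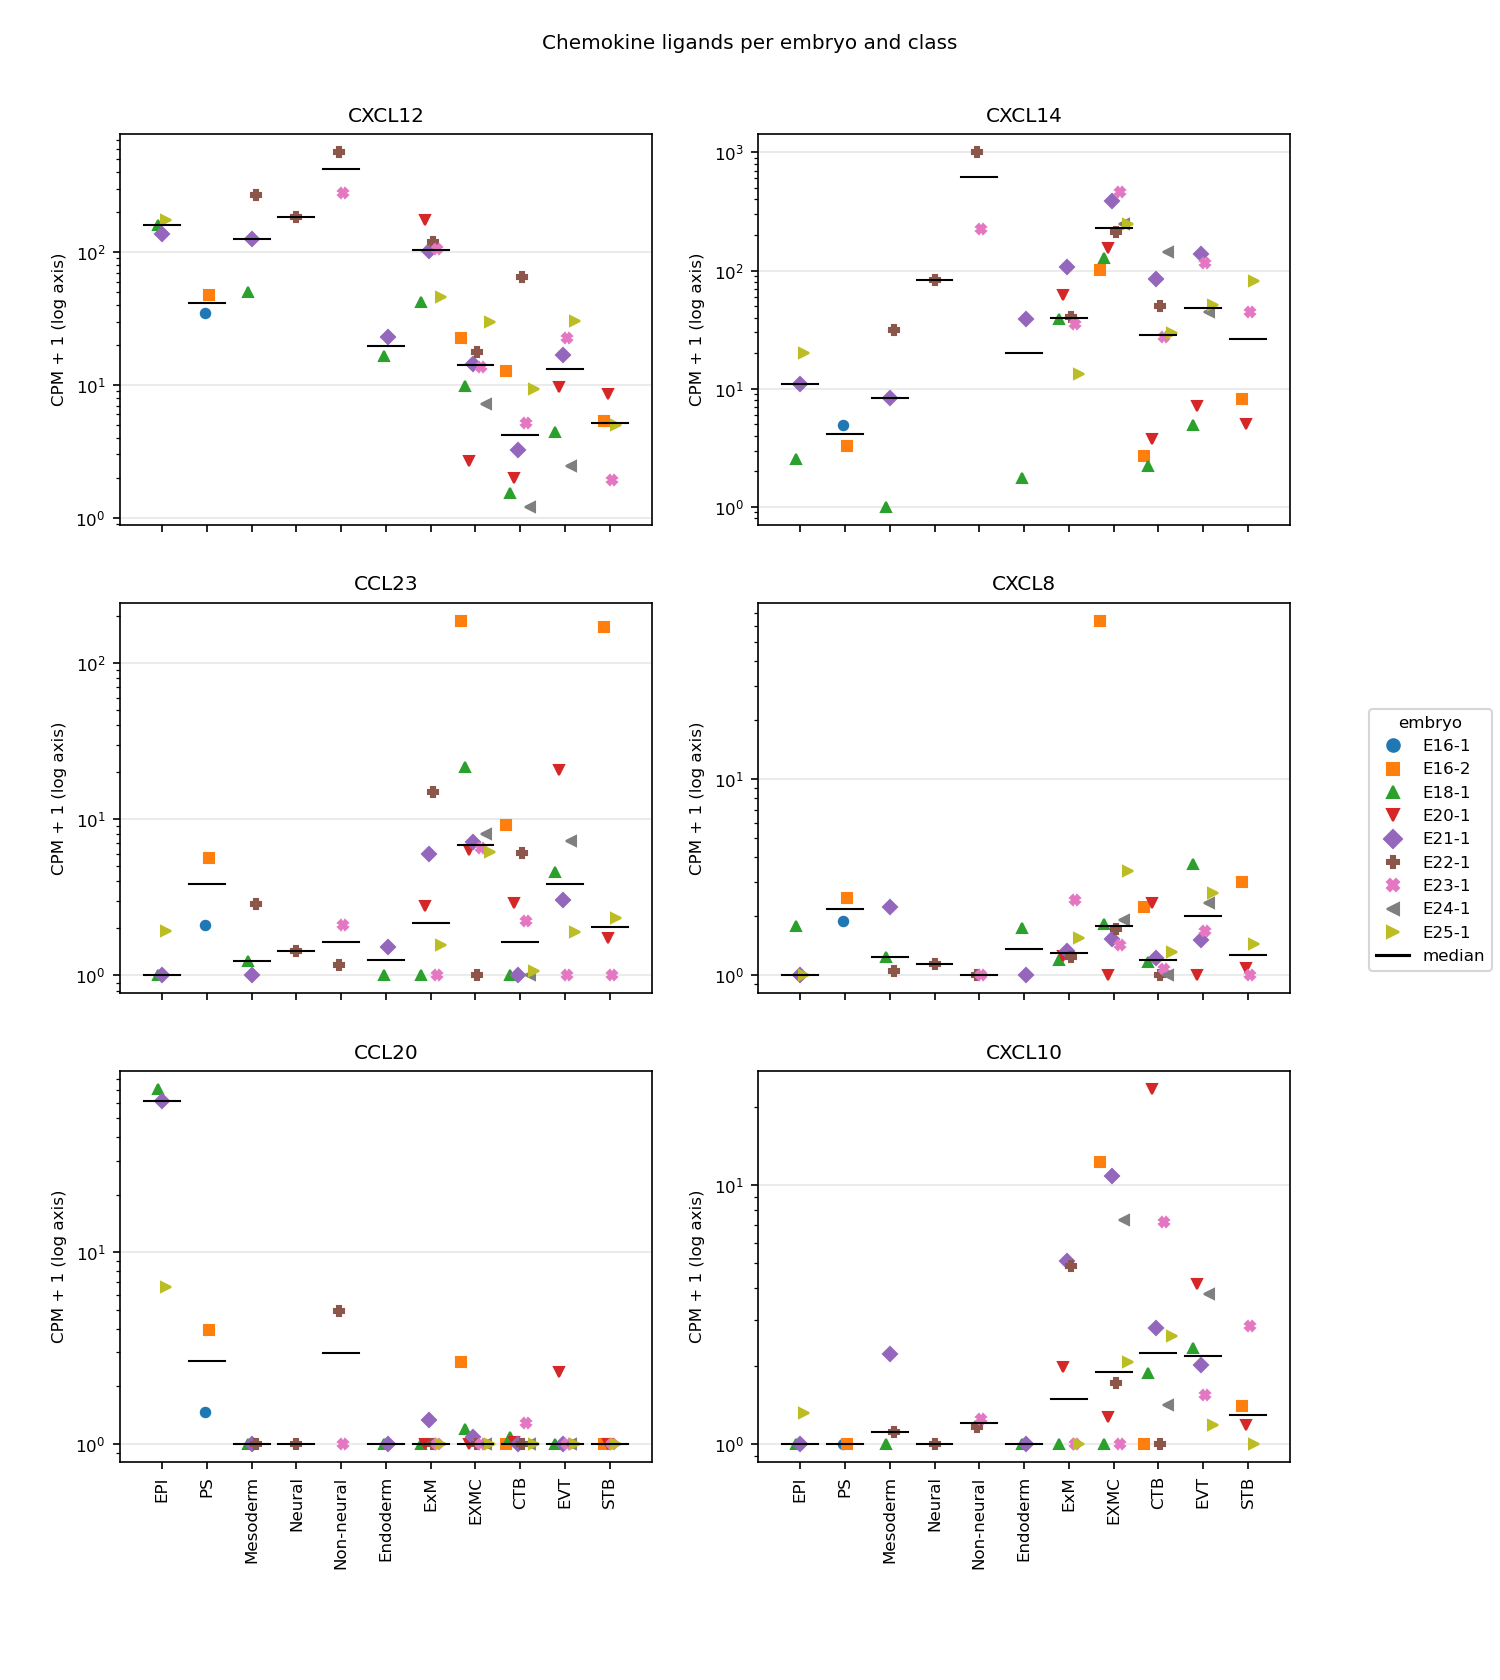
CPM + 1 on log axes for 6 chemokine ligands, 1 point per embryo with at least 10 cells of a class, and the median as a bar. CXCL12 and CXCL14 are spread over many embryos of a class, while CCL23 and CXCL8 in EXMC peak in E16-2, the 3 EPI sums of CCL20 lie above those of the other 6 classes tested, and CXCL10 in CTB peaks in E20-1.

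Of the chemokine receptors, 22 were listed and 8 had enough counts for a test. CCR7, the receptor of CCL19 and CCL21, was highest in STB, at 66.8, 46.5, 203 and 3.54 CPM in E16-2, E20-1, E23-1 and E25-1. CCR7 reached at most 7.20 CPM in any other class, so 3 of 4 STB sums lay above all others (edgeR adjusted p = 4.01e-05, with EPI at 0 and no fold change given). Its ligands were almost absent: CCL19 had 2 counts and CCL21 had 5 in the whole series. ACKR2, a scavenger of CC chemokines, was higher in CTB, EVT and STB (log2 fold change 3.85, 3.71 and 4.22). CCR2, a monocyte chemokine receptor, was higher in CTB and EVT (3.53 and 3.65).

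The IL6 system was split between trophoblast and mesenchyme. IL6 itself, the ligand, ranged from 8.35 to 138 CPM in CTB (median 61.7, 8 embryos) and from 5.80 to 134 CPM in EVT (median 60.2, 6 embryos). EXMC ranged from 0 to 19.6 CPM (median 9.36), and EPI and Mesoderm stayed at or below 3.42 CPM. STB held 4.80, 0.828, 4.16 and 30.1 CPM. CTB was above EXMC in 7 of 8 embryos, by a median of 10.3-fold (0.954 to 21.4), and above STB in 4 of 4. The CTB and EXMC ranges overlapped because CTB of E16-2 and E23-1 was low, at 18.7 and 8.35 CPM.

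The log2 fold change of IL6 was 3.70 ± 0.40 in CTB (adjusted p = 2.05e-09) and 3.56 ± 0.44 in EVT (6.08e-08; edgeR, Benjamini-Hochberg). Both calls held in every alternative, and the richest cell held 2.39% of IL6 counts. After thinning every cell to 20000 counts, 35.2% of 525 CTB cells and 33.5% of 394 EVT cells had an IL6 count, against 0.948% of 211 Mesoderm cells and 1.28% of 78 EPI cells. Thinning left out 24 CTB, 172 EVT, 20 Mesoderm and 1 EPI cells, and the unthinned shares were 47.9%, 34.1%, 4.33% and 12.7%. In CTB the dissociation genes summed to 383.8 CPM in E16-2 and 1705 in E23-1, where IL6 was low, but to 1203 in E21-1 with IL6 at 58.2, and to 4890 in E20-1 with IL6 at 93.7. Their part in the IL6 level was not tested.

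IL6R, which binds IL6, had the reverse distribution. It ranged from 31.9 to 85.0 CPM in EXMC (median 65.9) and from 44.4 to 61.6 CPM in Extraembryonic Mesoderm (median 50.1), against 0 to 6.89 CPM in CTB (median 0.827). EXMC exceeded CTB in 8 of 8 embryos without overlap. The median ratio was 44.6 over the 7 embryos with a CTB count, and the E22-1 CTB sum at 0 allows up to 1.38 CPM (3 counts, counting error only). The log2 fold change of IL6R was 2.56 ± 0.26 in EXMC, 2.18 ± 0.31 in Extraembryonic Mesoderm and -3.57 ± 0.47 in CTB (edgeR adjusted p = 8.77e-10, 8.65e-07 and 1.75e-07). Of 263 CTB cells with an IL6 count, 23 also had an IL6R count, against 135 of 190 such cells in EXMC, in cells not matched for depth. Among all cells 59 of 549 in CTB and 765 of 1185 in EXMC had an IL6R count. The shares among cells with IL6 were thus near those of their class.

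IL6ST, the chain that carries the signal for IL6 and its relatives, was counted in most cells and yet differed strongly in level. EXMC ran from 760 to 3274 CPM (median 1878) and Extraembryonic Mesoderm from 1241 to 1698 CPM. CTB lay between 58.3 and 150 CPM, and EPI held 39.8, 91.6 and 363 CPM. EXMC was above CTB in 8 of 8 embryos without overlap, by a median of 19.9-fold (6.66 to 36.9). The log2 fold change of IL6ST was 2.68 ± 0.20 in EXMC, 2.02 ± 0.23 in Extraembryonic Mesoderm, -2.27 ± 0.26 in CTB and -2.14 ± 0.42 in EPI (edgeR adjusted p between 3e-12 and 0.000208). All 4 calls held in every alternative that could fit them, but for EPI none of these left out an embryo with an EPI sum.

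EVT was intermediate and mixed for IL6ST, from 185 CPM in E18-1 to 1334 in E21-1. Fine cluster 18, an EVT cluster with mesenchymal leading genes, held IL6ST at 1357 CPM, within the range of Extraembryonic Mesoderm embryos. Without that cluster, EVT of E24-1 moved from 613 to 249 CPM of IL6ST and EVT of E25-1 from 782 to 247. IL6R in EVT of E25-1 moved likewise from 26 to 2.96 CPM, while IL6 moved from 31.7 to 56.2. Cluster 18 held 24.7% of all EVT counts in E24-1 and 75.6% in E25-1. It held 69.4% and 92.3% of the IL6ST counts of EVT there, 69.5% and 97.2% of the IL6R counts, and 16.1% and 56.8% of the IL6 counts. In both embryos its share was thus above its share of all counts for the receptor chains and below it for IL6.

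**Figure D3:**
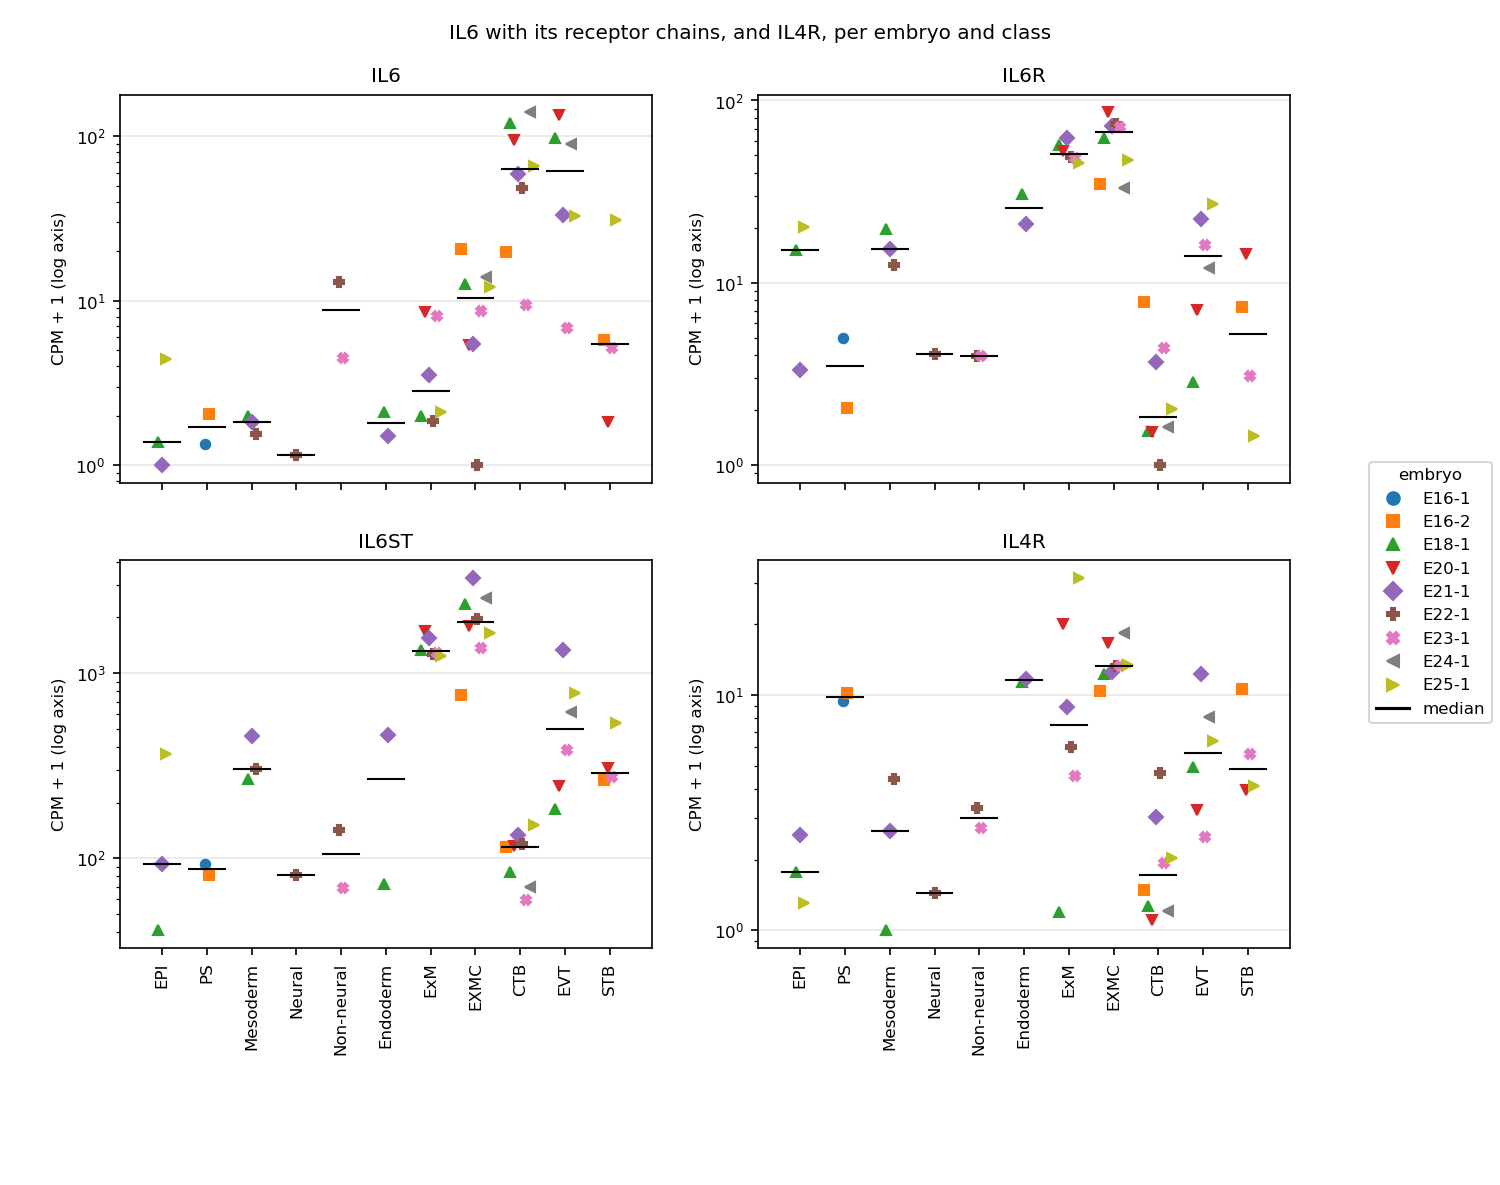
CPM + 1 on log axes for IL6, IL6R, IL6ST and IL4R, 1 point per embryo with at least 10 cells of a class, and the median as a bar. IL6 is high in CTB and EVT; IL6R and IL6ST are high in EXMC and ExM, where all IL6R sums lie between 31.9 and 85.0 CPM.

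Relatives of IL6 outside the naming rule were listed too, with 6 of 9 testable: LIF, CLCF1 and CTF1 are ligands, and LIFR, OSMR and CNTFR are receptor chains that pair with IL6ST or its partners. All 6 were higher in EXMC (background 19.8%), 3 in Extraembryonic Mesoderm (17.5%), 2 in EVT (15.8%) and 1 in Mesoderm (9.17%). Lower were 2 in each of CTB (15.7%), EPI (8.86%) and Mesoderm (5.68%). OSMR ranged from 18.5 to 66.4 CPM in EXMC and from 0 to 25.6 CPM in CTB (log2 fold change in EXMC 2.26). Of 15 testable JAK, STAT, SOCS and receptor-proximal genes, 8 were higher in EXMC (background 19.8%) and 6 in Extraembryonic Mesoderm (17.5%). In CTB 1 was higher (18.3%) and 3 were lower (15.7%), and in EPI 1 was higher (11.6%) and 2 were lower (8.86%). In EVT 2 were higher (15.8%). Mesoderm had 1 higher (9.17%) and 1 lower (5.68%), and STB had 1 higher (15.4%) and 1 lower (9.23%). STAT3, the main transcription factor downstream of IL6ST, was 54.5 to 146 CPM in EXMC and 17.4 to 52.2 CPM in CTB, without overlap. SOCS3, its feedback inhibitor, stayed at or below 2.77 CPM in EXMC.

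Members of the IL1 family differed by class. Pooled over all cells, IL1B was highest in EVT, IL1RN and IL36RN in STB, and IL33 in EXMC. IL1B, the inflammatory ligand, was 48.8, 83.4, 6.14, 3.78, 16.5 and 8.12 CPM in EVT of E18-1, E20-1, E21-1, E23-1, E24-1 and E25-1. CTB and EXMC stayed at or below 2.32 CPM, so EVT did not overlap with either, and the highest sum in another tested class was 10.5 CPM in Extraembryonic Mesoderm of E20-1. EVT exceeded CTB in 6 of 6 embryos, by a median of 43.6-fold over the 5 with a CTB count. In EVT the log2 fold change of IL1B was 5.34 ± 0.35 (edgeR adjusted p = 1.85e-14), and it passed in every alternative except sums per library (adjusted p = 0.297).

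Most IL1B in EVT came from fine cluster 23, at 205 CPM, against 11.4 to 23.2 CPM in the other 4 EVT clusters. The richest cell, in cluster 23 of E20-1, held 16.9% of all IL1B counts. Cluster 23 also carried TYROBP at 180 CPM, 1 of 15 leukocyte and macrophage markers, whose sum there was 229.9 CPM against 31.12 to 84.91 CPM in the other 4 EVT clusters. Of those markers 6 were at 0 in cluster 23, and PTPRC and LAPTM5 were at 0.1 CPM. C1QA and C1QC, among the 6, were at 0 in every class, so their absence here says nothing. SPI1 and MRC1, also among the 6, were at 33.3 and 8.15 CPM in the blood class. Other markers of the list were counted in EVT as a whole, with CSF1R at 11.2, LYZ at 9.57 and CD68 at 5.91 CPM. Whether leukocytes contributed to cluster 23 was not tested. In the blood class IL1B was 0.2 CPM.

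IL1RN, the receptor antagonist that blocks IL1, was higher in both EVT and STB. EVT held 183, 251, 25.6, 50.9, 127 and 42 CPM in the same embryo order, and STB held 131, 157, 86.3 and 516 CPM in E16-2, E20-1, E23-1 and E25-1. CTB ranged from 3.93 to 34.2 CPM, so STB did not overlap with it and EVT did at its lowest embryo. STB exceeded CTB in 4 of 4 embryos by a median of 20.1-fold, and EVT exceeded CTB in 6 of 6 by a median of 4.94-fold. The log2 fold change of IL1RN was 4.47 ± 0.40 in STB and 3.23 ± 0.33 in EVT (edgeR adjusted p = 3.39e-11 and 1.15e-09), and both calls held in every alternative that could fit them.

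Of 106 EVT cells with an IL1B count, 93 also had an IL1RN count, where 332 of all 566 EVT cells had one. IL1B was thus mostly counted in cells that also held its antagonist, in cells not matched for depth. Thinned to 20000 counts, 15.5% of 394 EVT cells had an IL1B count, against 0.952% of 525 CTB cells and 0 of 78 EPI cells, which allows a share of up to 4.62% (exact 95% interval).

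The receptors of the IL1 family differed in their breadth. IL1R1, the signalling receptor, ranged from 34.7 to 143 CPM in EVT, from 21.9 to 118 CPM in EXMC and from 10.5 to 69.8 CPM in CTB. It was at most 3.08 CPM in EPI and Mesoderm, below all sums of those 3 classes. IL1R1 was higher in EVT (2.66 ± 0.32), EXMC (2.28 ± 0.30), CTB (1.51 ± 0.33) and STB (1.94 ± 0.44), and lower in EPI and Mesoderm. The EXMC, CTB and STB calls for IL1R1 were each lost without E18-1 or without E21-1 (largest adjusted p 0.119, 0.88 and 0.681). These fits drop EPI and Mesoderm, which then have 2 embryos each, so the comparison itself changes. The STB call was lost without E25-1 as well.

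IL1R2, the decoy that binds IL1 without signalling, was the more trophoblast-restricted of the 2 receptors. It ranged from 79.4 to 172 CPM in EVT (median 90.7), from 33.2 to 113 CPM in CTB (median 68.0) and stood at 23.2, 80.9, 91.1 and 74.0 CPM in STB. EXMC reached 2.89 to 40.2 CPM, and CTB exceeded EXMC in 8 of 8 embryos by a median of 3.19-fold. EVT exceeded CTB in 6 of 6, by a median of 1.73-fold with overlapping ranges, and STB exceeded CTB in 1 of 4. The log2 fold change of IL1R2 was 2.79 ± 0.21 in EVT, 1.98 ± 0.20 in CTB and 1.96 ± 0.29 in STB (edgeR adjusted p = 1.73e-12, 1.09e-09 and 2.03e-06). IL1RAP, the accessory chain that IL1R1 needs, passed in no class and was highest in the class named PS (primitive streak) and derivative, at 20.7 CPM in E16-1 and 10.5 in E16-2.

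The IL36 branch had its antagonist in STB. IL36RN was 43.2, 68.0, 29.8 and 51.4 CPM in STB and 2.90 to 11.2 CPM in CTB, without overlap. STB exceeded CTB in 4 of 4 embryos by a median of 7.85-fold (6.06 to 12.8). IL36RN had a log2 fold change of 5.25 ± 0.43 in STB (edgeR adjusted p = 2.39e-12). A call in CTB (2.11 ± 0.45) was lost with sums per library. The receptor of the branch, IL1RL2, was in EVT at 3.48 to 13.6 CPM (edgeR adjusted p = 6.53e-08) and at 0 in all 4 STB sums.

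IL33, an alarmin of stroma and barrier tissue, was higher in EXMC (3.61 ± 0.61, edgeR adjusted p = 3.55e-05), with very uneven embryos. It stood at 64.3 CPM in E22-1, 16.8 in E23-1 and 7.47 in E18-1, and at 0.347 to 1.89 CPM in the other 5. Its receptor IL1RL1, named here after its values were seen, was also higher in EXMC at 0 to 14.3 CPM (edgeR adjusted p = 2.29e-07, with STB at 0 and no fold change given). E22-1, with most IL33, had IL1RL1 at 0. IL18BP, which neutralises IL18, was higher in EVT at 0.721 to 12 CPM (3.93 ± 0.43, edgeR adjusted p = 2.47e-09).

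**Figure D4:**
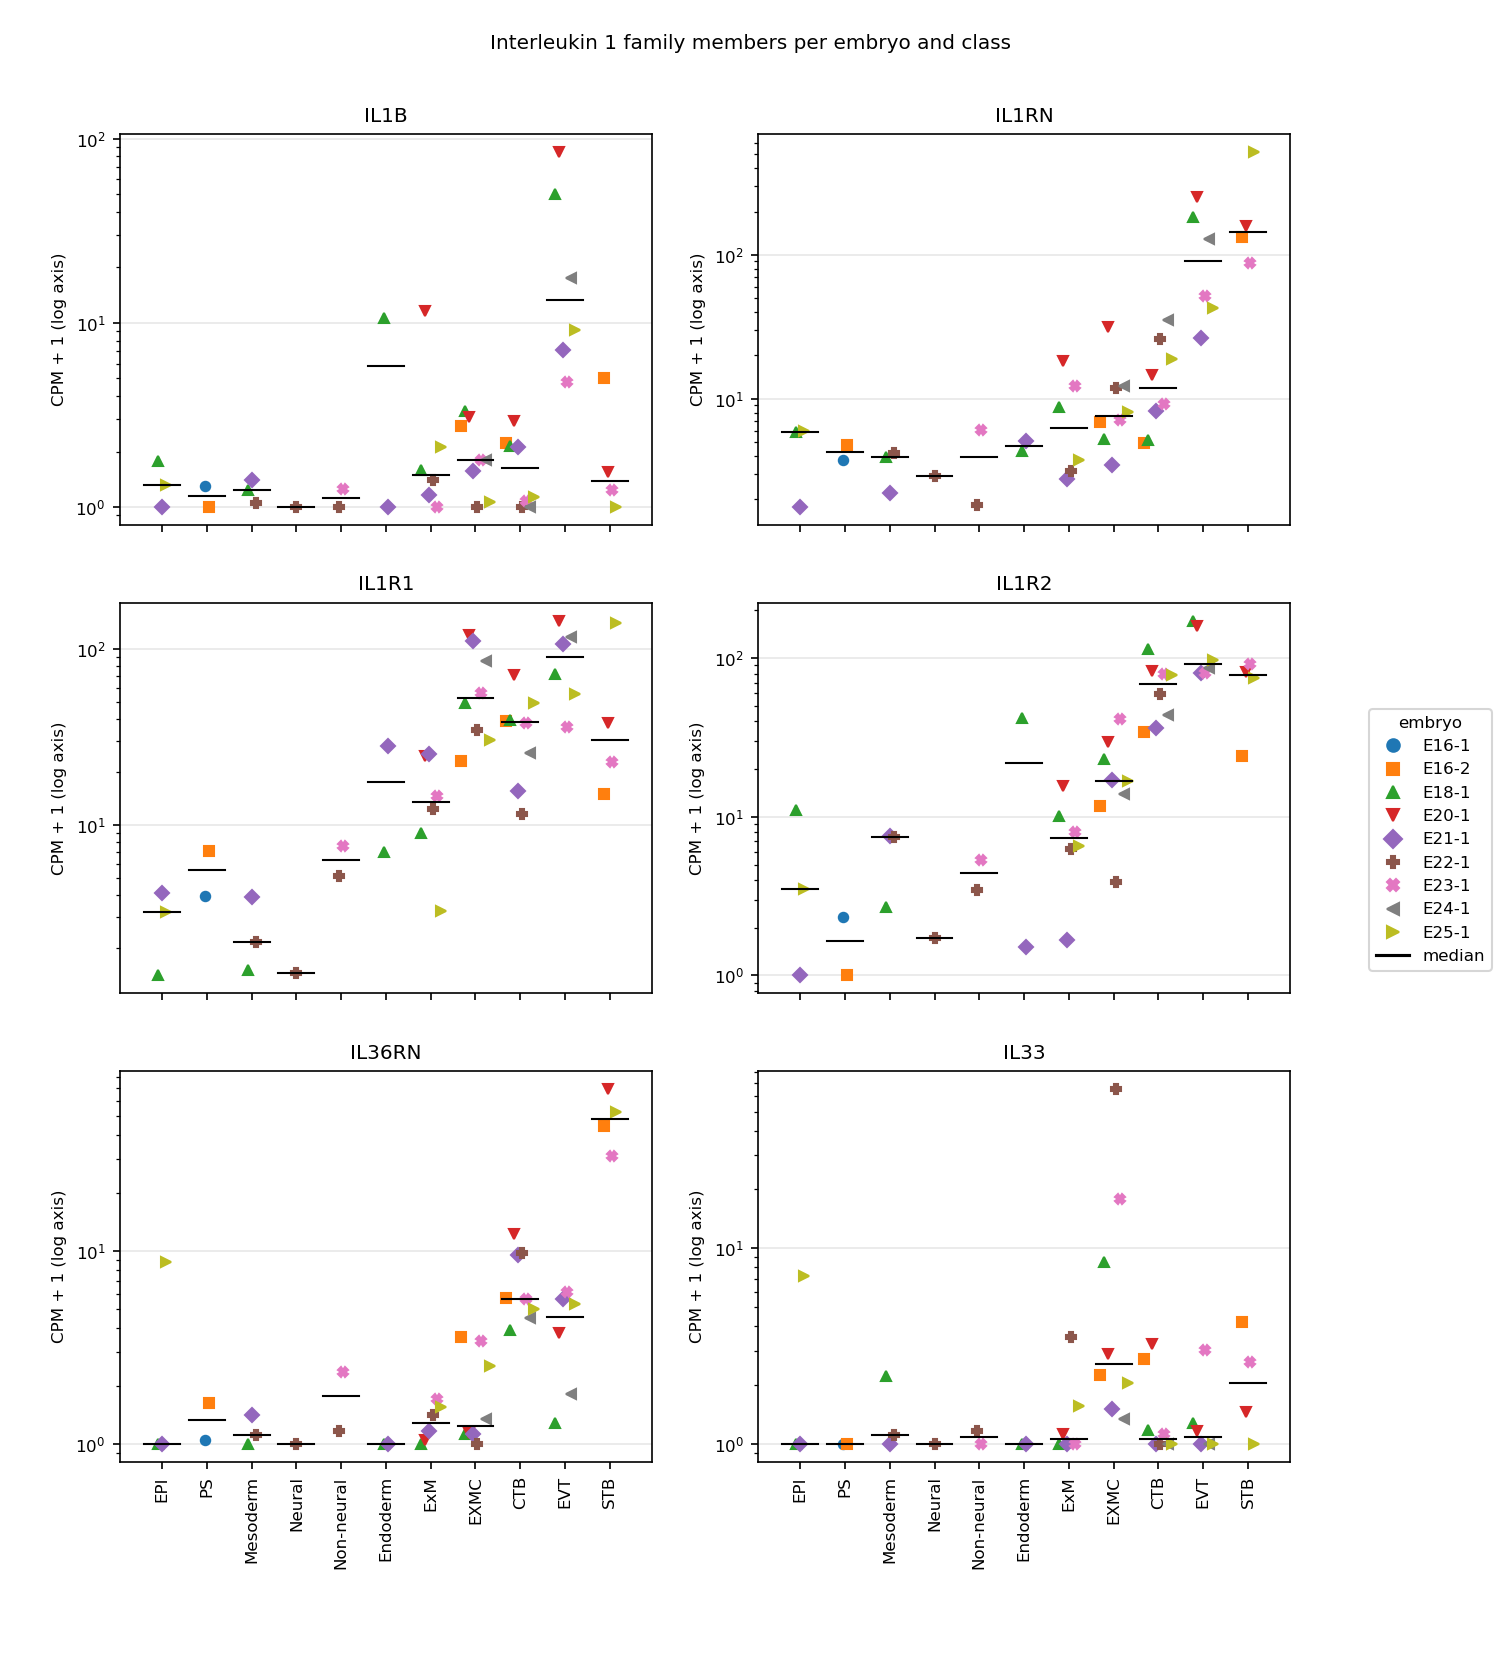
CPM + 1 on log axes for 6 members of the IL1 family, 1 point per embryo with at least 10 cells of a class, and the median as a bar. IL1B is highest in EVT, IL1RN in EVT and STB, IL1R2 in the 3 trophoblast classes and IL36RN in STB; IL33 in EXMC is led by E22-1 at 64.3 CPM.

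Several of these genes are neighbours in the RefSeq annotation of assembly T2T-MFA8v1.1, a property the rule did not use. Of 106 members matched there, 54 stand next to another member. IL1R2, IL1R1, IL1RL2, IL1RL1, IL18R1 and IL18RAP stand in a row. Within this row IL1R1, IL1RL1 and IL18R1 (also named after its values were seen; 0 to 17.7 CPM, edgeR adjusted p = 1.74e-05) were higher in EXMC, while IL1R2, IL1R1 and IL1RL2 were higher in EVT. IL18RAP, the last, had 7 counts in all. In a second row, IL36RN and IL1RN were higher in STB, while IL37, IL36G and IL36A, of the same row, had 58, 13 and 0 counts.

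Receptors of the IL4 and IL13 group separated by class. IL4R, the chain shared by IL4 and IL13, was 9.47 to 17.5 CPM in EXMC and 0.102 to 3.67 CPM in CTB, without overlap in 8 of 8 embryos. Its log2 fold change was 2.35 ± 0.33 in EXMC (edgeR adjusted p = 4.84e-07) and 1.97 ± 0.41 in Extraembryonic Mesoderm, where the call was lost without E20-1 (adjusted p = 0.0913). IL13RA1, its partner, was broad, between 1.45 and 71.6 CPM in every sum of the 7 tested classes. IL13RA1 was higher in EVT (20.9 to 71.6 CPM, 1.01 ± 0.24) and lower in CTB (3.87 to 20.1 CPM, -0.96 ± 0.24), without overlap. The ligands were scarce, with 1 count of IL4 and 39 of IL13.

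IL13RA2, the decoy for IL13, was an STB gene carried by few cells. STB sums were 18, 21.9, 14.3 and 0 CPM in E16-2, E20-1, E23-1 and E25-1, and the sum at 0 allows up to 1.33 CPM. IL13RA2 had a log2 fold change in STB of 3.34 ± 0.57 (edgeR adjusted p = 2.5e-05). In 7 STB cells of E18-1, below the minimum, 6 had counts and the sum was 1946 CPM, and 3 of these cells held 64.4% of all IL13RA2 counts. Endoderm held 17.1 CPM over its 62 cells.

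In the IL17 family, IL17B marked both mesenchymal classes. It was 6.95 to 39.8 CPM in EXMC and 2.77 to 20.6 CPM in Extraembryonic Mesoderm, against 0.088 to 3.09 CPM in CTB. EXMC exceeded CTB in 8 of 8 embryos without overlap, and the log2 fold changes of IL17B were 2.47 ± 0.45 and 3.10 ± 0.52 (edgeR adjusted p = 4.12e-05 and 1.09e-05). IL17RB, a receptor of IL17B, was higher in EPI at 23.3, 31.6 and 11.8 CPM (1.80 ± 0.52). In STB, IL17RB was 4.00, 2.48 and 6.94 CPM in E16-2, E20-1 and E23-1 but 39.9 CPM in E25-1, above every EPI sum. IL17RD, which also restrains FGF signalling, was highest in PS and derivative, at 20.9 CPM in E16-1 and 31.1 in E16-2. IL17RD was called higher in EPI (2.89 ± 0.86) with 10.9, 0.770 and 0.311 CPM, a call among the 7 tested classes, to which PS does not belong.

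In the IL10 family, the receptor chains IL10RA and IL20RA were found in trophoblast with few counts of their ligands. IL20RB, of the same family and named after its values were seen, was instead highest in EPI. Pooled over all cells it was 14.4 CPM there, against 0.424 in CTB, 1.89 in EVT and 1.33 in STB. IL10RA, the ligand-binding chain for IL10, was 0.984 to 30.3 CPM in CTB (median 17.6), 5.63 to 26.2 CPM in EVT (median 17.2) and 0 to 1.07 CPM in EXMC. It was higher in CTB (2.66 ± 0.38), EVT (2.72 ± 0.40) and STB (2.25 ± 0.60, lost under DESeq2; edgeR adjusted p = 6.57e-07, 1.66e-06 and 0.00411). IL10 had 332 counts in all, and its highest fine cluster, 10 of EXMC, reached 5.59 CPM. IL20RA was higher in EVT at 5.59 to 30.9 CPM (2.68 ± 0.40, edgeR adjusted p = 1.17e-06), above all CTB sums. That call was lost with sums per library (adjusted p = 0.0634), and its ligands IL19, IL20 and IL24 had 9, 2 and 6 counts.

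Among chains of the common gamma family, IL2RB was higher in STB at 32.8, 7.91, 6.01 and 21.7 CPM (edgeR adjusted p = 2.69e-05, fold change not given because Mesoderm is at 0). CTB and EXMC reached at most 1.71 CPM of IL2RB, without overlap with STB. In EVT, IL2RB was 8.57 CPM in E24-1, above 2 of the 4 STB sums, and at most 1.64 CPM in the other 5. A call for IL2RB in Extraembryonic Mesoderm rested on E20-1 (5.71 CPM) and E22-1 (0.768 CPM), with the other 4 sums at 0, and was lost without either embryo. IL7R was higher in EXMC at 1.39 to 18.7 CPM (edgeR adjusted p = 3.26e-07, with EPI at 0), a call lost with sums per library (adjusted p = 0.157). Its ligand IL7 had 25 counts. The 17 blood cells held IL7R at 33.9 CPM, or 13.5 CPM without their richest cell.

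IL23A, a subunit of IL23, was an Endoderm gene at 44.9 CPM in E18-1 and 7.14 in E21-1, and stayed at or below 3.98 CPM in every other class sum. Its partner subunit IL12B had 104 counts and never exceeded 1.6 CPM. Endoderm of E18-1 and E21-1 comprised 26 and 15 cells, and the class had too few embryos for a test.

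Fine clusters within a class shared its profile unevenly. In CTB, IL6 was 90.2 CPM in cluster 0 and 88.5 in cluster 12 but 7.63 in cluster 14, of which 89.6% of cells came from E23-1. In EVT, IL6 was 181 CPM in cluster 19, all of it from E20-1, and 105 in cluster 13, against 14 in cluster 23 and 7.23 in cluster 7. Cluster 23 was highest in EVT for IL1B, IL1RN (538 CPM), IL1R2 (260 CPM), IL13RA1 (66.7 CPM) and IL20RA (43.7 CPM). IL6 and IL1B were therefore highest in different EVT clusters. In EXMC, IL6ST was highest in cluster 1 (3234 CPM) and lowest in cluster 6 (792 CPM), while CCL23 (172 CPM), CXCL8 (50.2 CPM) and IL17B (44.3 CPM) were highest in cluster 6. Cluster 9 led EXMC for CXCL14 (446 CPM) and IL33 (14.8 CPM).

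**Figure D5:**
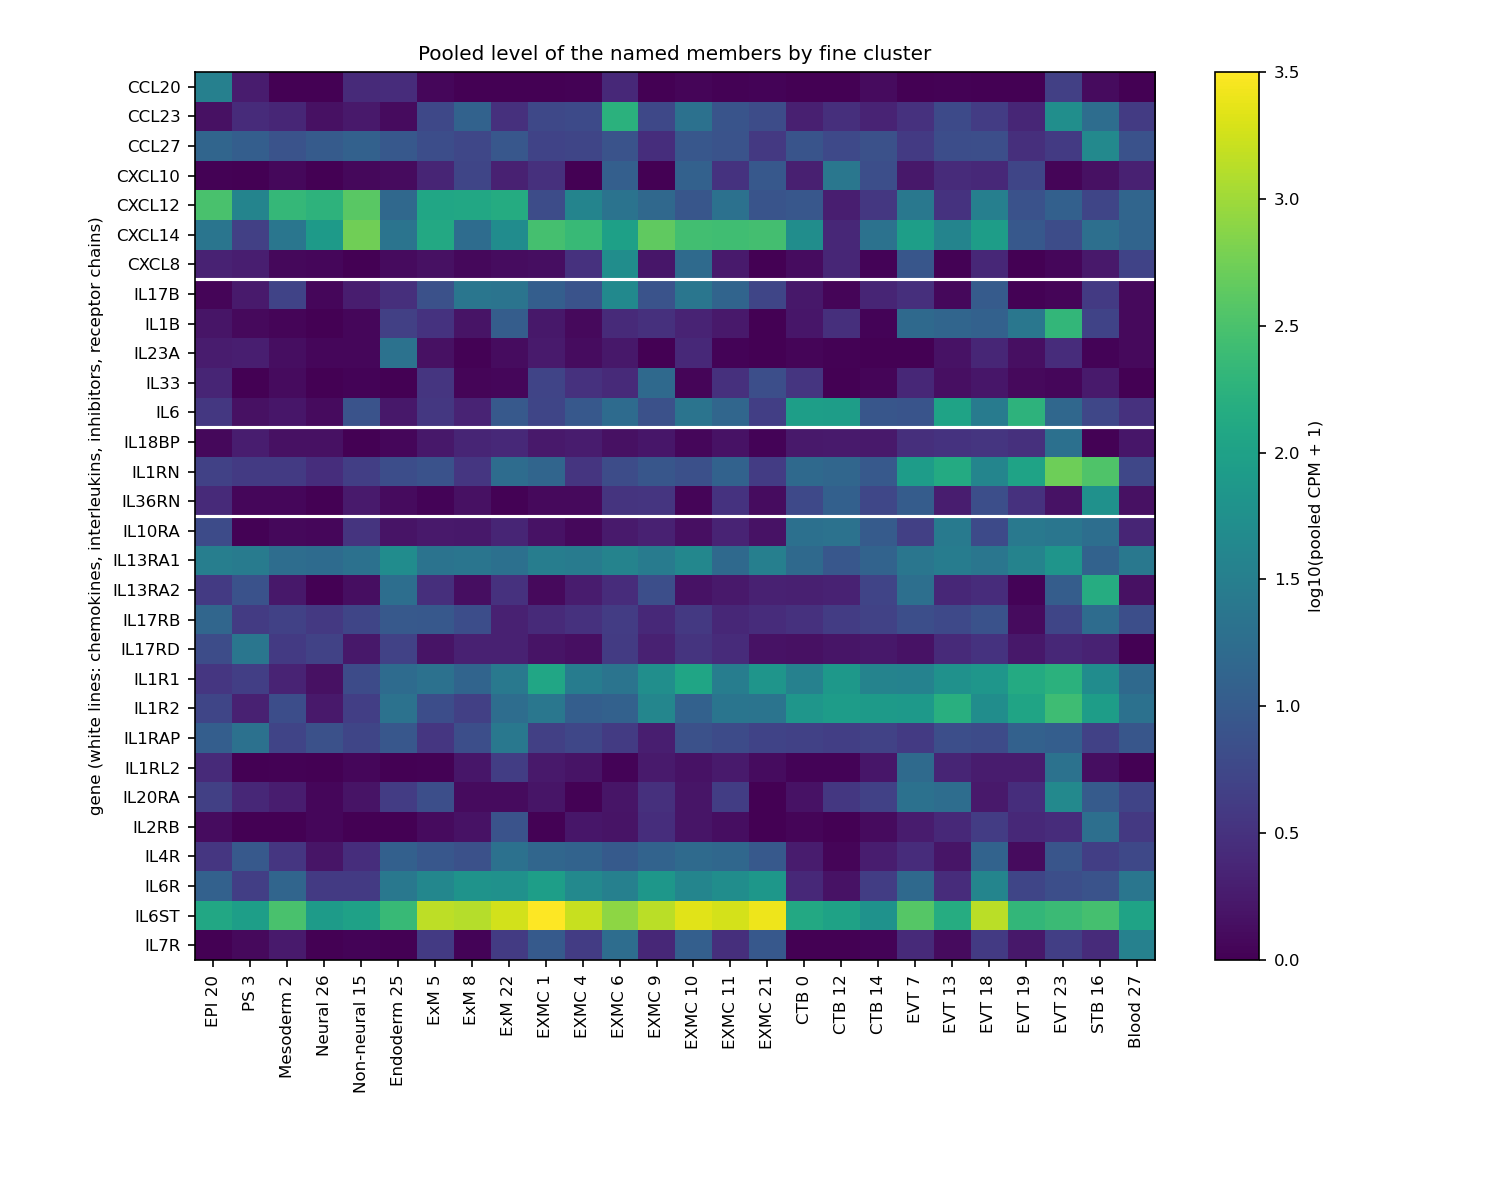
Heat map of log10(pooled CPM + 1) for the 30 named members (rows) in the 26 fine clusters (columns, by class and cluster number). Cluster EVT 18 resembles the ExM and EXMC columns for IL6ST (1357 CPM); EVT 23 is brightest for IL1B and IL1RN, and EXMC 6 for CCL23 and CXCL8.

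Genes of the NF-kB pathway and its targets, which many inflammatory cytokines act through, were listed beside the members. Of 10 testable, 5 were higher in EVT (background 15.8%), 3 in EXMC (19.8%) and 3 in CTB (18.3%). In CTB 2 were lower (15.7%), and in EPI 4 were lower (8.86%). The counts in CTB were thus near the background. ICAM1, an adhesion molecule, was among those higher in EVT (log2 fold change 3.73), and NFKB1 was higher in EVT (1.70), EXMC (1.38) and CTB (1.05). The summed level of these genes was 537.0 CPM in cluster 23 and 561.1 CPM in STB, the highest of all 26 fine clusters. In STB a single gene, NFKBIA, made up 417.4 CPM of the sum, and 1 of the 10 testable genes was higher (background 15.4%).

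Stage was tested as a slope over embryonic day within CTB and EXMC (8 embryos each) and EVT and Extraembryonic Mesoderm (6 each), and 0 members passed (edgeR, adjusted over all genes). In these 4 classes 8, 13, 17 and 10 members were tested. In this main fit no gene of any kind passed either, 0.0% of 8134, 9402, 8604 and 8299 genes. Of these genes 655, 339, 628 and 684 had an unadjusted p below 0.05. Among members, 1 in CTB, 1 in EXMC, 2 in EVT and 0 in Extraembryonic Mesoderm did. The absence of calls in EVT depended on 1 embryo: with at least 20 cells per sum, as without E21-1, 74 of 9035 genes rose and 3 fell (edgeR). In that fit 0 of 20 members passed and 6 had an unadjusted p below 0.05. DESeq2, sums per library and no filter on low counts also called some genes. Sums per library counted 21, 28 and 21 libraries as units in CTB, EXMC and EVT. Libraries of 1 embryo are not independent, so those calls do not rest on embryos as replicates. On simulated data of the same size, 79% of genes with a slope of 0.5 log2 units per day were recovered and 10% of those with 0.25, so slopes of that smaller size would mostly be missed.

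The 4 members with an unadjusted p below 0.05 were IL1RN in CTB (0.34 ± 0.09 log2 units per day, adjusted p = 0.408), CXCL14 in EXMC (0.21 ± 0.07, adjusted p = 0.997), IL6R in EVT (0.42 ± 0.16, adjusted p = 0.614) and IL1B in EVT (-0.41 ± 0.15, adjusted p = 0.59). IL1RN in CTB was 3.93 CPM in E16-2 and 34.2 CPM in E24-1, its lowest and highest embryos. IL1B in EVT was 48.8 and 83.4 CPM at days 18 and 20 and at most 16.5 CPM later. DESeq2 called 1 member, IL1RN in CTB (adjusted p = 0.0349). Each later day is 1 embryo, so none of these slopes can be told apart from embryo or sex.

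Of the 110 members, 80 were not named by the rule on level. The highest of them, IL26, reached 16.1 CPM in the blood class, where 1 cell held 63.4% of its counts. Of the 80, 12 passed in a class.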

How the data were processed

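Raw counts per gene and cell, with a cell annotation (embryo, sex, class, fine cluster at resolution 2), were used as deposited by the authors. Reads had been processed with cutadapt 1.15, STAR 2.6.0a and HTSeq 0.10.0, per the submitters' processing notes. The sources used here do not name a genome build, do not say if counts are reads or molecules and mention no doublets. None were removed here.

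Counts were summed per embryo and class (at least 10 cells) and tested with edgeR 4.0.16 (quasi-likelihood, TMM, filterByExpr, R 4.3.3), with Benjamini-Hochberg adjustment over all genes. Class contrasts had embryo as a block and needed 3 embryos, while day slopes needed 5 embryos over 4 days. On counts simulated with a fixed dispersion of 0.3 and changed in CTB only, the class test recovered 97% of 4-fold and 100% of 16-fold changes (13239 genes). The slope test in CTB, on 9787 genes, recovered the shares given with the slopes. DESeq2 1.42.0 and other settings were alternatives.

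A member was named if it passed a test, reached 20 CPM in a class or fine cluster with counts in at least 10 cells, or was a ligand or receptor of such a member, up to 30 by highest level. The members, lists and rules were chosen with earlier results of these data known. Counting error only is covered by intervals and by limits from 3 counts. Gene names alone were matched to RefSeq, and no sequence was used.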

Additional observations from a re-analysis of the deposited data

Results flagged for a closer look

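In 5 of 30 groups of 4 to 8 embryos, the highest or lowest embryo lay farther from the rest, on log2(CPM + 1), than Dixon's test allows at 95%. Chance alone gives about 1 such group in 20 when groups are chosen without regard to their values. Here the group of each named member was the class with its highest mean CPM, among classes with at least 4 embryos. A single high embryo can raise that mean, so the rate does not hold for the 5 flagged groups. Embryo E16-2 stood out in 3 of them: CXCL8 in EXMC (63.3 CPM, next 2.41), CCL23 in STB (169 CPM, next 1.33) and CCL20 in EXMC (1.67 CPM, next 0.193). Embryo E20-1, the deepest, stood out for IL23A in EXMC (3.98 CPM, next 0.721). Embryo E25-1 was the lowest for IL13RA2 in STB (0 CPM, next 14.3). The STB sum of E16-2 comes from 12 cells.

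The 2 libraries whose labels disagree on the day held 149 cells and 19043829 counts that entered no embryo value. In them 57 members had a count and 50 had more than 3. IL6ST was 1305 CPM there, against 839 CPM in the other libraries, and CXCL14 was 183 CPM against 105 CPM.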

How the results depend on the processing

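Of 68 calls of named members in a class, 39 held in every alternative that could fit their class and 29 were lost in at least 1. Sums per library moved most: 24 members passed in any class instead of 40, with 12 instead of 19 in EXMC (11 shared), 6 instead of 10 in Extraembryonic Mesoderm and 1 instead of 7 in Mesoderm, and EPI and STB could not be fitted. They also reversed IL17RB in EXMC (0.32) and IL1R2 in Extraembryonic Mesoderm (0.11) and Mesoderm (0.89), and put IL1RN in Mesoderm at 0.00676. DESeq2 called 15 in EPI instead of 9 and 15 in Mesoderm instead of 7, and turned IL2RB in Extraembryonic Mesoderm to -0.11. With 1 embryo left out, 35 to 40 members passed in any class: 11 to 20 in CTB, 9 to 11 in EPI, 13 to 16 in EVT, 15 to 20 in EXMC, 9 to 15 in Extraembryonic Mesoderm, 6 to 12 in Mesoderm and 9 to 14 in STB. EPI and Mesoderm could not be fitted without an embryo of their own, so their ranges leave out only embryos with no sum in that class. Leaving out E16-1 changed no count, because it had no sum in a fitted class. The 20 in CTB came without E21-1 and the 12 in Mesoderm without E25-1. IL1R1 in CTB then ranged from -0.15 (without E18-1) to 1.63, CXCL12 in EXMC from -1.12 to 0.0432 (without E21-1) and IL2RB in Extraembryonic Mesoderm from -1.22 (without E20-1, SE 58.4, so no direction) to 2.99. The cause of these moves was not tested, but in several settings the classes compared change. Leaving out E18-1 or E21-1 removes EPI and Mesoderm, leaving out E22-1 removes Mesoderm and leaving out E25-1 removes EPI. At least 20 cells per sum and sums per library both remove EPI and STB. Sums per library also add Neural ectoderm, Non-neural ectoderm and PS and derivative.

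For day slopes, 0 members passed in the main fit and 0 to 0 with 1 embryo left out. DESeq2 called 1 (CTB), no filter on low counts 1 (EXMC), sums per library 3 (1 each in CTB, EVT and EXMC) and the same with the library code as a term 1 (EXMC). That term turned IL1RN in CTB to -1.09, and library sums gave no value in Extraembryonic Mesoderm. Slopes on library sums count libraries of 1 embryo as separate units, so their calls do not rest on embryos as replicates. No paired analysis was possible because the batch number in each title runs through the series and none recurs on 2 days. The library code, which does recur across days, entered only as the term above.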
